A study of Mus musculus with 19 samples.

Results

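Chromatin accessibility was examined around 8 mouse chemokine genes, the CC ligands Ccl2, Ccl7, Ccl11, Ccl12, Ccl8, Ccl5 and Ccl20 and the CX3C ligand Cx3cl1. A peak belonged to these loci when its centre lay inside a gene or within 20 kb of either of its ends, and 16 of the 90154 peaks in the table did so. Of these, 4 lay in the window of more than 1 chemokine gene and 12 in the window of a single gene. Peaks were found for 6 of the 8 genes. The windows of Ccl12 and Ccl8 held none, and the nearest peak lay 30.6 kb from Ccl12 and 44.0 kb from Ccl8.

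The 19 libraries were ATAC-seq, in which a transposase cuts DNA where chromatin is open, and a value is the number of reads in a peak divided by a size factor of its library (normalised reads). The cells came from wild type C57BL/6J mice, as neural stem cells taken at embryonic day 14 from the ventricular zone of single brains. They were grown with EGF as free floating spheres (NSPs, 3 libraries, whose titles call them untreated astrocytes at 0 h), or moved to serum-containing medium on poly-L-ornithine to become astrocytes. Differentiating cells were taken at 24 h (3 libraries), 72 h (3) and 1 week (4) untreated, and at 24 h (3) and 72 h (3) with TNF at 50 ng/ml, with no TNF group at 1 week. All groups carried the same genotype, and every differentiating group, controls included, had serum and no added EGF. The labels do not say whether the libraries of a group came from separate brains, so p-values measure the spread between these libraries.

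CC chemokines are small secreted proteins that draw leukocytes by way of G protein-coupled receptors. CCL2, CCL7 and CCL12 act through CCR2 on monocytes, CCL11 acts through CCR3 on eosinophils, CCL5 draws T cells and monocytes, and CCL20 is the ligand of CCR6. CX3CL1 (fractalkine) is held on the membrane by a stalk until ADAM10 or ADAM17 releases it, and its receptor CX3CR1 marks microglia in the brain. TNF signals through NF-kB, and Ccl2, Ccl5 and Ccl20 are long known as NF-kB target genes.

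Promoter sequences, read from RefSeq on assembly GRCm38.p6, were found for 4 of the 8 genes and are shown because the Cx3cl1 promoter lay under a peak and those of Ccl20, Ccl12 and Ccl8 did not. Each is the 250 bases before the annotated gene start, on the plus strand, with CG dinucleotides in capitals, a mark chosen after the sequences were seen. The windows are chr8:94771930-94772179 for Cx3cl1, chr1:83116516-83116765 for Ccl20, chr11:82101595-82101844 for Ccl12 and chr11:82114935-82115184 for Ccl8.
Cx3cl1: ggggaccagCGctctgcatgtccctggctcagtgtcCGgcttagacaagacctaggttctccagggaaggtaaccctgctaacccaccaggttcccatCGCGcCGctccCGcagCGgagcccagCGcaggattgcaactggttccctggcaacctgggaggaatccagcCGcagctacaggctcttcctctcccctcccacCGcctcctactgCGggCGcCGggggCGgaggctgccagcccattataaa
Ccl20: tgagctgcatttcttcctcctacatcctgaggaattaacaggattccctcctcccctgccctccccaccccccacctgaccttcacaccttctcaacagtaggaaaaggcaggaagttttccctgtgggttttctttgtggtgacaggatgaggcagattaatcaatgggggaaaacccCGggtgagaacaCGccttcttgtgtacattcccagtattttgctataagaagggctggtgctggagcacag
Ccl12: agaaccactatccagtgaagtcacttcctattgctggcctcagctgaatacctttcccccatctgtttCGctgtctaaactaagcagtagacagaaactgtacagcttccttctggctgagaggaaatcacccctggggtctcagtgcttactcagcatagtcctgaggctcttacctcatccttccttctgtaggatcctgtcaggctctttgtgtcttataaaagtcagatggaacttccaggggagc
Ccl8: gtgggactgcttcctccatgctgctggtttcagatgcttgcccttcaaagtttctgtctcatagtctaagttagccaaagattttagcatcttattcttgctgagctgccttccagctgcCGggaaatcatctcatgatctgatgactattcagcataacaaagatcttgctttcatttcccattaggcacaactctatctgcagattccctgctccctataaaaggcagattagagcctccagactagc
The Cx3cl1 window held 14 CG dinucleotides and 64.8% G and C. The Ccl20 window held 2 of them at 51.2%, the Ccl12 window 1 at 48.4% and the Ccl8 window 1 at 44.8%. Over the 32851 promoter windows of the table the medians were 6 CG dinucleotides and 52.4%, and 29.4% of windows held at least as many CG dinucleotides as that of Cx3cl1.

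Both strands of these windows were searched for 6 short motifs, the NF-kB forms GGANNTTCC and GGGNNTTCC (which overlap in letters), AP-1 as TGANTCA, the interferon-stimulated response element as GAAANNGAA, STAT as TTCNNNGAA and C/EBP as TTNCNNAA. The Ccl20 window held GGAAAACCC, a match to GGGNNTTCC on the minus strand, from 80 to 72 bases before the gene start. The Ccl12 window held GGAACTTCC, a match to GGANNTTCC on both strands, from 17 to 9 bases before the start. The windows of Cx3cl1 and Ccl8 held none of the 6. Over all windows, 4.98% held GGGNNTTCC, 3.59% GGANNTTCC, 6.75% the AP-1 motif, 7.13% the interferon motif, 7.02% the STAT motif and 36.8% the C/EBP motif.

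Reads in peaks ranged from 9640256 to 39349111 per library, with the NSPs the deepest group (28636739 to 39349111) and the 24 h TNF libraries (15764739 to 18780028) deeper than their untreated controls (11758938 to 15083087). Spearman correlations across peaks between libraries of a group were 0.92 to 0.98, lowest among the NSPs. NSP replicate 1 had the lowest NSP value at several of the peaks described here. Counts of called peaks and calls lost without it are given below, but the peaks called only without it are not named. Over 8 peaks at gene ends of neural stem and progenitor markers, the summed level was 5404 to 6363 in the NSP libraries and 2534 to 3686 in all others. The widest fall was at a Hes5 peak, with means of 1976 in NSPs and 93.0 at 1 week. Sox2 (1258 in NSPs and 1280 at 1 week) and Nes (435 and 471) were not lower at 1 week. Of 12 microglia and macrophage genes, 7 had no peak at a gene end (Aif1, Csf1r, Itgam, Ptprc, C1qa, C1qb and Cx3cr1), and the 6 peaks of the others summed to 581 to 609 at 24 h and 681 to 747 with TNF. At 72 h the same sum was 610.1 to 670.4 and 711 to 755 with TNF. Cd68 carried that shift, with means of 225 and 362 at 24 h and 262 and 344 at 72 h. Spi1 rose less (200 to 209 and 242 to 261), and P2ry12 fell (57.4 to 42.9 and 62.3 to 43.2). The median log2 change of the 6 peaks with TNF was -0.03 at 24 h and -0.21 at 72 h, so the list as a whole did not rise. The 9 astrocyte peaks summed to 2159 to 2533 at 24 h and 1915 to 2224 with TNF, and to 2501 to 2671 and 1986 to 2185 at 72 h. They did not move together. The mean of a Gfap peak rose with TNF (91.5 to 213 at 24 h and 110 to 190 at 72 h). Another Gfap peak fell (489 to 369 and 529 to 246). The median log2 change of the 9 peaks was -0.30 at 24 h and -0.23 at 72 h. The part of these shifts in the results below was not tested.

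With TNF, 4 of the 16 peaks rose at 24 h and 6 at 72 h, and none fell at either time. A call is an adjusted p under 0.05 in limma over the 88919 peaks tested, of which 7.06% rose and 3.53% fell at 24 h, and 6.24% rose and 5.55% fell at 72 h. No chemokine peak was lower with TNF at an unadjusted p under 0.05, nor by edgeR or DESeq2. All 16 peaks passed the filter on low values. In bulk libraries, a site open in more cells and a site more open in each cell cannot be told apart. Their median log2 change was 0.27 at 24 h and 0.34 at 72 h, beside -0.03 and 0.03 over all peaks tested. The 4 peaks that rose at 24 h all rose at 72 h, and they comprised 2 peaks upstream of Ccl2 and 2 peaks beyond the higher-coordinate end of Ccl5. The highest group mean was in a TNF group at 10 of the 16 peaks, at 1 week in 4, at 24 h in 1 and in NSPs in 1. The same share over all peaks was not computed, so nothing is read from this count. Only 6 of the 16 were called higher with TNF at 24 h, 72 h or both. Some highest means were near ties, as at the peak 3.6 kb from Ccl5 (49.5 at 24 h with TNF and 48.4 in NSPs).

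**Figure D1:**
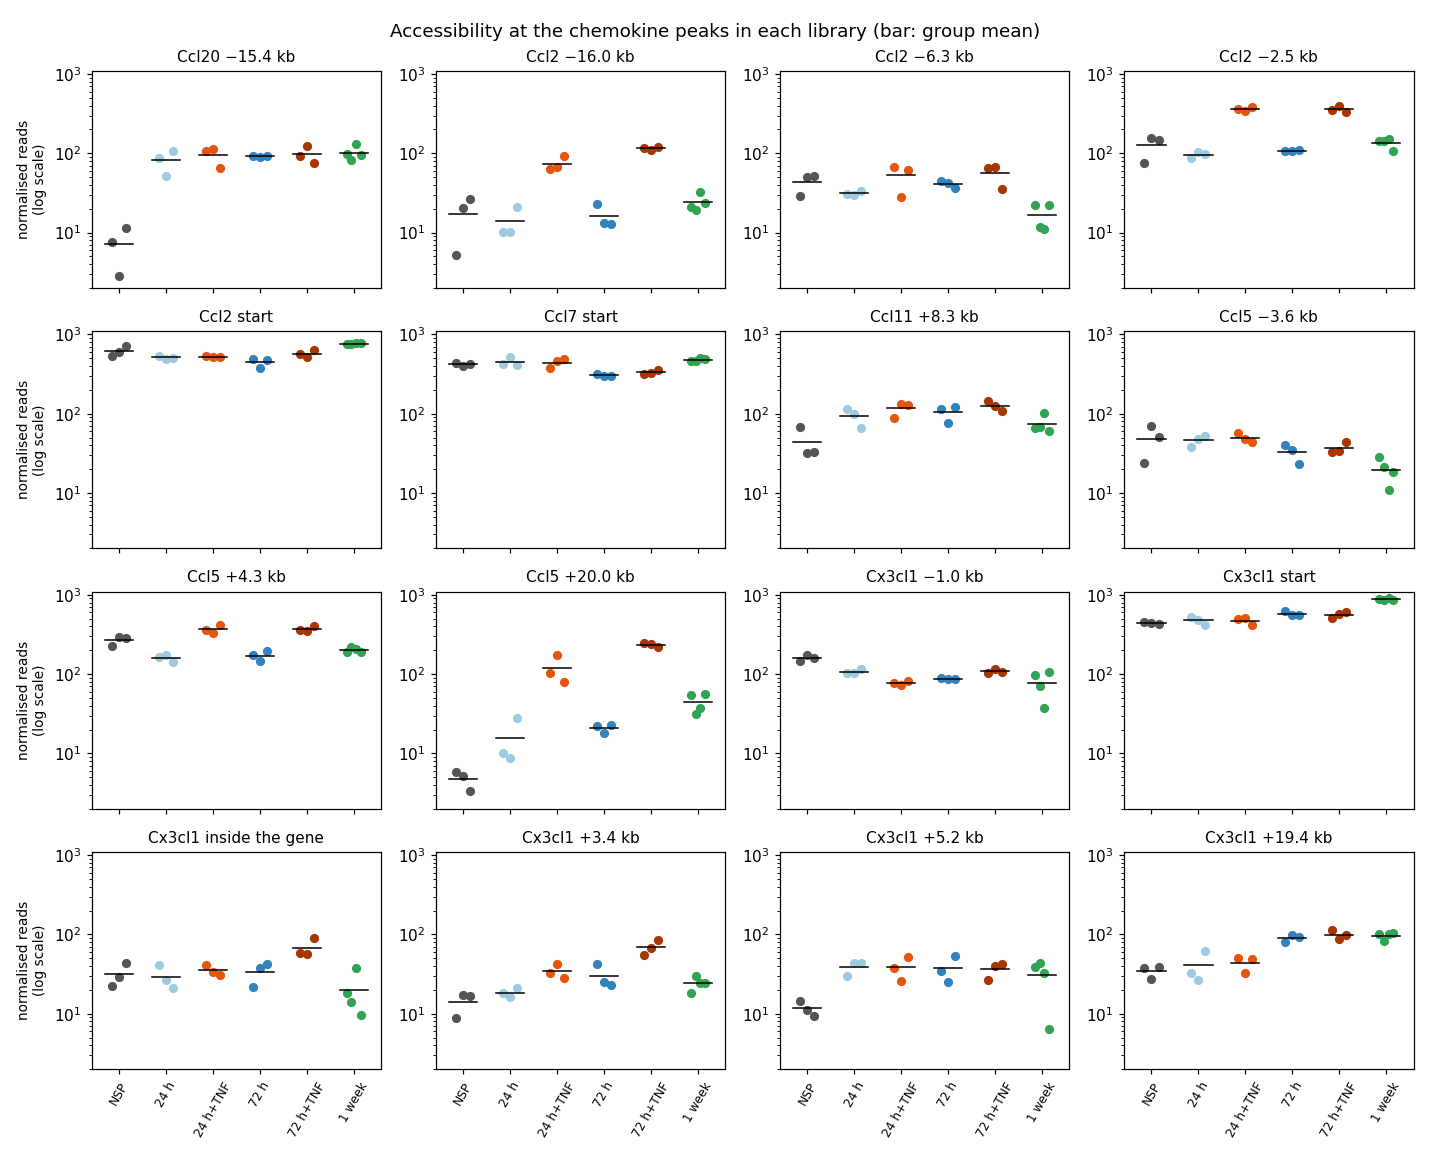
Normalised reads (log axis) at each of the 16 peaks, 1 panel a peak named by gene and distance in kb (minus for the lower-coordinate side), with 1 point per library and a bar at the group mean. In the panels of Ccl2 −16.0 kb, Ccl2 −2.5 kb, Ccl5 +4.3 kb and Ccl5 +20.0 kb every TNF library stands above every untreated library of its time point, while the panels of the Ccl7 and Cx3cl1 starts show overlapping points.

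The Ccl2, Ccl7, Ccl11, Ccl12 and Ccl8 genes follow each other on chromosome 11, and 6 peaks lay in their windows. Peaks covered the starts of Ccl2 and Ccl7. The peak at the Ccl2 start (chr11:82035296-82035796) had its centre 31 bp before the gene, and that at the Ccl7 start (chr11:82045391-82045891) 71 bp before. The former was shared by the windows of Ccl2 and Ccl7, and the latter by those of Ccl2, Ccl7 and Ccl11.

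The peak 16.0 kb before Ccl2 (chr11:82019344-82019844), in the window of Ccl2 alone and in no annotated gene, was low without TNF. Its normalised reads were 10.2, 10.3 and 20.9 at 24 h and 63.7, 67.9 and 91.4 with TNF. At 72 h they were 23.2, 13.2 and 12.7, against 115, 111 and 121 with TNF. Every TNF library was above every untreated one of the series, since NSPs reached 5.26, 20.3 and 26.6 and 1 week 21.2, 19.5, 33.0 and 23.6. The log2 fold change was 2.40 ± 0.42 (SE) at 24 h (adjusted p = 0.000218) and 2.80 ± 0.42 at 72 h (adjusted p = 2.97e-05).

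A second peak, 2.5 kb before Ccl2 (chr11:82032876-82033376) and shared with the window of Ccl7, was already open in untreated cells and also rose with TNF. It had 86.5, 103 and 97.3 normalised reads at 24 h and 359, 339 and 385 with TNF, a log2 fold change of 1.91 ± 0.20 (adjusted p = 1.01e-07). Values at 72 h were 106, 106 and 109.6 untreated and 357, 392 and 328 with TNF, a change of 1.73 ± 0.20 (adjusted p = 5.36e-07). The groups with and without TNF were far apart at both times. NSPs (75.4, 157 and 148) and 1 week astrocytes (144, 143, 152 and 106) stayed below all TNF libraries. No untreated comparison at this peak passed the test with all libraries. NSP replicate 1, at 75.4, was the lowest of the NSPs, and the test without it is not given for this peak. Between these 2 peaks, the one 6.3 kb before Ccl2 (chr11:82029043-82029543) had 30.7, 29.5 and 33.3 at 24 h and 68.1, 28.0 and 62.3 with TNF, and 45.0, 41.9 and 37.0 and 65.3, 66.5 and 36.0 at 72 h. Its groups overlapped and neither TNF comparison passed (adjusted p = 0.303 and 0.556).

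At the Ccl2 start itself, one of the more open peaks of the table (92.3% of all peaks had a lower mean), the change with TNF did not pass at 24 h (adjusted p = 0.933). The libraries had 537, 496 and 503 normalised reads untreated and 533, 519 and 512 with TNF, and the 95% interval of the log2 difference was -0.21 to 0.27. At 72 h they had 488, 382 and 474 and 569, 520.3 and 629, which did not overlap, with a log2 fold change of 0.36 ± 0.12 (adjusted p = 0.0462). That call was lost in 11 of 19 alternative settings, among them edgeR on the recovered reads (adjusted p = 0.0719) and the omission of replicate 2 or 3 of the untreated 72 h libraries (adjusted p = 0.253 and 0.06) or of TNF replicate 1 or 3 (0.101 and 0.207). The Ccl7 start had 420.1, 513 and 409 and, with TNF, 377, 456 and 485 at 24 h, and 318, 300.2 and 301 and 313, 327 and 359 at 72 h. Its groups overlapped, with intervals of -0.27 to 0.22 and -0.13 to 0.36 on the log2 scale, so a change as large as that of the peaks upstream of Ccl2 lay outside them.

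The peak 8.3 kb past Ccl11 (chr11:82070975-82071475), next to the end of the lncRNA gene Gm38913, was the closest to Ccl11 and also the nearest one to Ccl12 and Ccl8. Its values were 115, 98.8 and 65.3 at 24 h, 89.3, 134 and 129 at 24 h with TNF, 116, 75.4 and 121 at 72 h and 146, 126 and 108 at 72 h with TNF. These overlapped and did not pass the test (adjusted p = 0.527 and 0.547). NSPs had 68.3, 31.6 and 32.6 and 1 week astrocytes 65.2, 67.8, 103 and 61.1. Against NSPs it rose at 24 h (1.11 ± 0.28, adjusted p = 0.00147), 72 h (1.28 ± 0.28, adjusted p = 0.000227) and 1 week (0.80 ± 0.26, adjusted p = 0.00754), with the highest NSP library inside the range of the 24 h and the 1 week values. The 1 week call was lost without NSP replicate 2 (adjusted p = 0.0604) or replicate 3 (adjusted p = 0.0505).

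**Figure D2:**
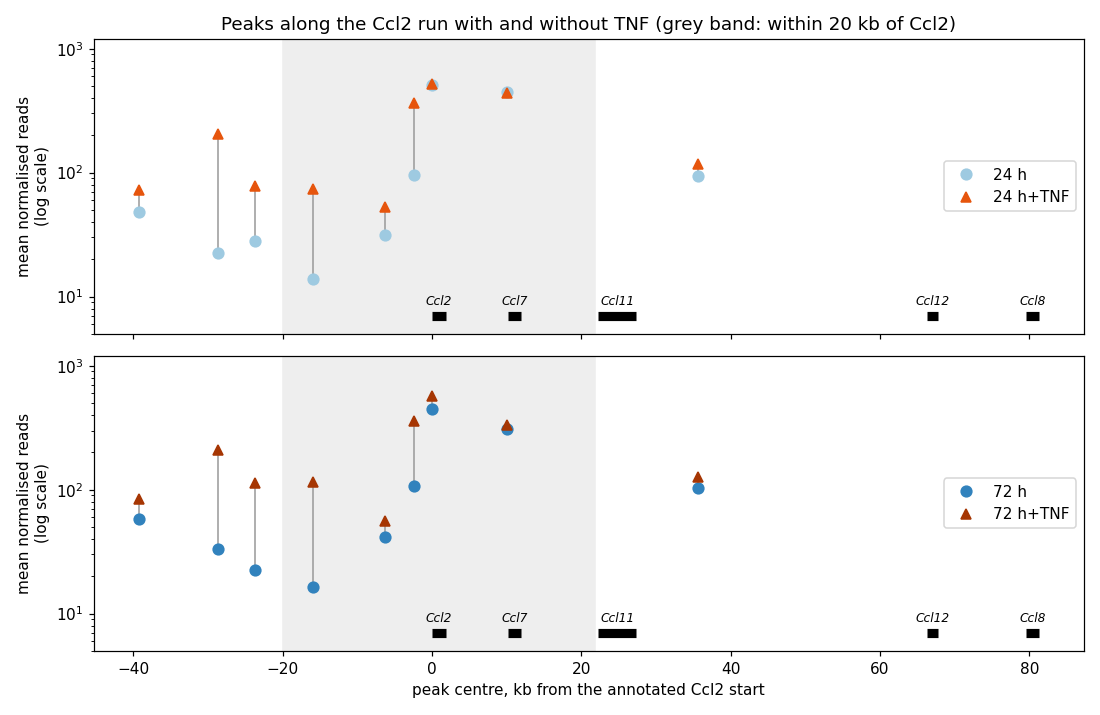
Mean normalised reads (log axis) of the peaks along the Ccl2 run, by distance of the peak centre from the annotated Ccl2 start in kb, at 24 h (upper panel) and 72 h (lower panel), circles untreated and triangles with TNF, n = 3 each. Black bars are genes and the grey band is the 20 kb window of Ccl2. The pairs are wide apart upstream of Ccl2, at 28.6, 23.7, 16.0 and 2.5 kb before it, and nearly coincide at the Ccl7 start at both times and at the Ccl2 start at 24 h, while at 72 h the Ccl2 start is at 448 untreated and 573 with TNF.

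Ccl5 lies further along chromosome 11 and is transcribed towards lower coordinates, so the higher-coordinate side is upstream of it. All 3 of its peaks were in its window alone. The peak 4.3 kb upstream of Ccl5 (chr11:83534534-83535034), within the body of the lncRNA gene Gm32650 (exon or intron was not resolved), had 164, 174 and 140.4 normalised reads at 24 h and 362, 332 and 419.5 with TNF. At 72 h it had 174, 145 and 195 and, with TNF, 361, 347 and 409. TNF libraries were above all untreated libraries of the series. It rose by 1.21 ± 0.15 (adjusted p = 1.57e-06) and 1.12 ± 0.15 (adjusted p = 4.76e-06) on the log2 scale.

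Without TNF the same peak went the other way. NSPs had 225, 295 and 282 normalised reads and 1 week astrocytes 191, 222, 207 and 189. Against NSPs it fell at 24 h (-0.74 ± 0.15, adjusted p = 0.000137), 72 h (-0.64 ± 0.15, adjusted p = 0.000438) and 1 week (-0.40 ± 0.14, adjusted p = 0.0126). At 1 week the call was lost without NSP replicate 2 (adjusted p = 0.0752) or replicate 3 (adjusted p = 0.0519).

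The peak 20.0 kb upstream of Ccl5 (chr11:83550268-83550768) showed the widest range of the 16, with a mean 49.2 times as high at 72 h with TNF as in NSPs. Its centre lay exactly at the 20 kb limit, and whether the table counts starts from 0 or 1 is not stated. If from 0, the peak lies just outside, leaving 15 peaks, of which 3 rose with TNF at 24 h and 5 at 72 h, and against NSPs 3, 6 and 7 rose at 24 h, 72 h and 1 week. The peak was kept, and its nearest annotated genes are Gm32650 at 4.0 kb and, among coding genes other than Ccl5, Ccl9 at 22.4 kb. NSP libraries had 5.84, 5.18 and 3.32 normalised reads. Cells at 24 h had 10.2, 8.85 and 28.3, against 104, 176 and 80.0 with TNF, and cells at 72 h had 21.9, 17.9 and 22.9, against 248, 238 and 219.6 with TNF. At 1 week the values were 53.8, 31.2, 37.4 and 55.8. TNF libraries were above all others, and all differentiating libraries were above all NSP libraries. The log2 fold change with TNF was 2.95 ± 0.36 at 24 h (adjusted p = 2.02e-06) and 3.43 ± 0.36 at 72 h (adjusted p = 1.99e-07).

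This peak also rose against NSPs without TNF, by 1.38 ± 0.36 at 24 h (adjusted p = 0.00253), 1.94 ± 0.36 at 72 h (adjusted p = 4.17e-05) and 2.96 ± 0.34 at 1 week (adjusted p = 9.43e-09). The 24 h call was lost in a fit to those 2 groups alone (adjusted p = 0.0666). From 72 h to 1 week it rose by 1.02 ± 0.34 (adjusted p = 0.0186), a call lost without 72 h replicate 2 (adjusted p = 0.072) or 1 week replicate 1 or 4 (0.055 and 0.0567) and with total reads (0.106). Since NSP values are near 0, these fold changes on the log2(value + 1) scale understate the ratio of the means. The third Ccl5 peak, 3.6 kb past its downstream end (chr11:83521918-83522418) in the bodies of the coding gene Heatr9 (0.3 kb from its end) and of Gm32650, had 37.6, 48.7 and 51.7 at 24 h and 57.5, 47.4 and 43.6 with TNF. It had 39.9, 34.7 and 22.9 at 72 h and 33.1, 34.0 and 44.4 with TNF, with overlapping groups (adjusted p = 0.912 and 0.769). From NSPs (24.0, 70.2 and 51.2) to 1 week (28.2, 21.0, 11 and 18.2) it fell by 1.20 on the log2 scale (adjusted p = 0.00233), though NSP replicate 1 lay within the 1 week range.

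Ccl20, on chromosome 1, had a single peak, 15.4 kb before the gene (chr1:83101089-83101589) and in no annotated gene. It was low in NSPs, with 7.59, 2.83 and 11.3 normalised reads, and higher in every differentiating library. Values were 87.7, 51.6 and 107 at 24 h, 92.6, 90.9 and 91.8 at 72 h and 97.0, 82.6, 132 and 95.4 at 1 week. The log2 fold change against NSPs was 3.43 ± 0.33 at 24 h (adjusted p = 9.54e-10), 3.65 ± 0.33 at 72 h (adjusted p = 1.41e-10) and 3.78 ± 0.31 at 1 week (adjusted p = 7.68e-12), without overlap. With TNF it had 108, 114 and 64.4 at 24 h and 93.9, 124.2 and 75.6 at 72 h. These overlapped the untreated values, and the 95% intervals of the log2 difference were -0.44 to 0.91 and -0.61 to 0.73. No peak lay at the Ccl20 promoter, the window with the GGAAAACCC match.

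Cx3cl1, on chromosome 8, had 6 peaks, none shared with another chemokine gene of the set, although the outermost lay closer to Ccl17. The peak at its start (chr8:94771904-94772404) covers the CG-rich promoter window printed above and was among the most open of the table, above 92.3% of all peaks in mean value. With TNF it did not pass the test at either time. Libraries had 531, 481 and 418 at 24 h and 491, 506 and 416 with TNF, and 631, 550.2 and 556 and 509, 571 and 605 at 72 h. The groups overlapped, and the 95% intervals of the log2 difference were -0.25 to 0.22 and -0.28 to 0.19.

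The Cx3cl1 start rose over untreated differentiation. NSPs had 460.3, 439 and 427 normalised reads and 1 week astrocytes 895, 867, 922 and 869, with no overlap between the 1 week group and any other. The rise against NSPs was 0.39 ± 0.11 at 72 h (adjusted p = 0.00461) and 1.00 ± 0.11 at 1 week (adjusted p = 1.83e-09), a fold of 2.01, and that at 24 h did not pass (adjusted p = 0.487). From 72 h to 1 week it was 0.62 ± 0.11 (adjusted p = 4.82e-05), and 0.21 with loess offsets (adjusted p = 0.1).

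The neighbouring peak 1.0 kb before Cx3cl1 (chr8:94770934-94771434) moved in the opposite direction over differentiation. It had 147, 175 and 161 in NSPs, 105, 103 and 115 at 24 h, 88.8, 86.1 and 86.7 at 72 h and 96.1, 71.7, 37.4 and 106 at 1 week. Against NSPs it fell at 72 h (-0.87 ± 0.24, adjusted p = 0.00289) and 1 week (-1.14 ± 0.23, adjusted p = 6.69e-05). With TNF it had 77.8, 72.2 and 82.0 at 24 h, all below the untreated values, and 103, 117 and 107 at 72 h, all above them. Neither change passed (adjusted p = 0.254 and 0.456), and the difference between the 2 times was 0.78 ± 0.34 on the log2 scale (adjusted p = 0.632).

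Of the 4 peaks at the far end of Cx3cl1, the one 3.4 kb past the gene (chr8:94785597-94786097, in the lncRNA gene Gm51543) was the only Cx3cl1 peak that rose with TNF. It had 18.2, 16.2 and 20.9 at 24 h and 32.7, 42.0 and 28.0 with TNF, and 42.5, 25.1 and 22.9 and 54.5, 68.0 and 85.2 at 72 h. The groups did not overlap at either time, and the change passed at 72 h (1.20 ± 0.35, adjusted p = 0.0208) and not at 24 h (adjusted p = 0.127). The 72 h call was lost in 6 of 19 alternative settings, among them the omission of TNF replicate 2 or 3 (adjusted p = 0.0591 and 0.112) or of untreated replicate 2 or 3 (0.0796 and 0.0983). Inside the gene, 0.4 kb from its end (chr8:94781764-94782264), values were 21.9, 38.3 and 42.1 at 72 h and 58.1, 56.2 and 90.0 with TNF, which did not overlap but did not pass (adjusted p = 0.101). At 24 h that peak had 41.0, 26.6 and 20.9 and 41.6, 33.4 and 31.2 with TNF, which overlapped, as did its values in NSPs (22.2, 29.2 and 43.2) and at 1 week (18.5, 14.0, 37.4 and 9.65). The peak 3.4 kb past the gene had 8.76, 17.4 and 16.6 in NSPs and 18.5, 30.4, 24.2 and 24.7 at 1 week. Against NSPs it rose at 72 h (1.03 ± 0.35, adjusted p = 0.0117) and 1 week (0.77 ± 0.32, adjusted p = 0.0366), calls lost without NSP replicate 1 (adjusted p = 0.0896 and 0.24). The 72 h call was also lost without 72 h replicate 1 (adjusted p = 0.09). The 1 week call was lost in 9 of 20 alternative settings, among them the omission of 1 week replicate 2 (adjusted p = 0.0968) or 4 (0.0589), total reads (0.0615), edgeR (0.0506) and a fit to those 2 groups alone (0.0875), and the change was 1.47 with loess offsets.

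The peak 5.2 kb past Cx3cl1 (chr8:94787397-94787897) rose early, from 14.6, 11.3 and 9.30 in NSPs to 29.6, 44.3 and 43.1 at 24 h (1.65 ± 0.47, adjusted p = 0.00474) and 34.7, 25.1 and 53.5 at 72 h (1.56 ± 0.47, adjusted p = 0.00531). At 1 week it had 38.8, 43.6, 33.0 and 6.43, where replicate 4 fell below the NSPs. The change at 1 week was 1.04 ± 0.44 (adjusted p = 0.0368), and it was 1.64 without replicate 4, and it was lost without any of the other 1 week replicates (adjusted p = 0.118, 0.138 and 0.0885), without NSP replicate 2 or 3 (0.0724 and 0.108) and in a fit to those 2 groups alone (0.127). It was 1.67 with loess offsets. The peak 19.4 kb past Cx3cl1 and 7.5 kb from Ccl17 (chr8:94801596-94802096) rose later. It had 37.4, 27.3 and 39.2 in NSPs, 33.0, 26.6 and 62.8 at 24 h, 81.1, 99.3 and 91.8 at 72 h and 101, 83.4, 101 and 103 at 1 week, a change of 1.38 ± 0.27 at 72 h (adjusted p = 5.95e-05) and 1.47 ± 0.25 at 1 week (adjusted p = 6.51e-06), while 24 h did not pass (adjusted p = 0.668). With TNF the former had 38.0, 25.9 and 51.9 at 24 h and 26.8, 39.9 and 42.0 at 72 h, and the latter 50.4, 32.3 and 48.8 and 114, 88.7 and 97.2. Both overlapped the untreated values at both times.

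**Figure D3:**
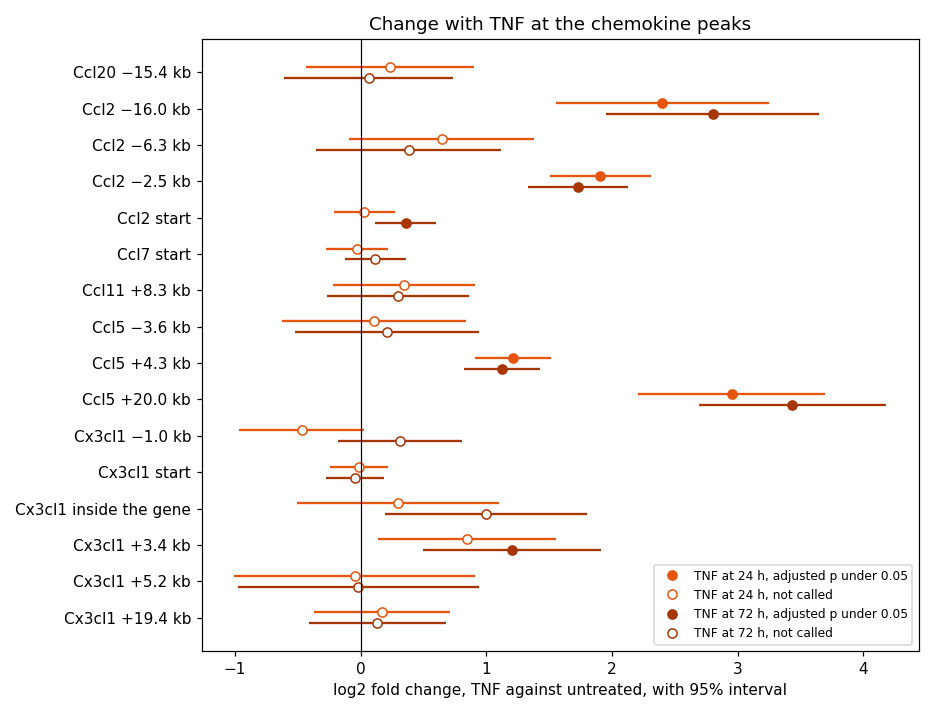
Log2 fold change with TNF (x axis) and its 95% interval from limma for each of the 16 peaks (y axis, labels as in the plot of values by library), at 24 h in light and at 72 h in dark orange, filled where the adjusted p was under 0.05. The 4 peaks filled at both times lie upstream of Ccl2 and Ccl5, and the intervals at the Ccl7 and Cx3cl1 starts are narrow and span 0.

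The TNF effect at 72 h was compared with that at 24 h by an interaction term, which bears on whether the loci responded differently at the later time. None of the 16 peaks passed in limma, where 1 had an unadjusted p under 0.05 (the peak 1.0 kb before Cx3cl1), nor in edgeR or DESeq2. Over all peaks tested the term called 1 in limma, 0.00112%, 1 in edgeR and 85 in DESeq2, so that a difference between times has not been shown for the chemokine loci. The peak at the Ccl2 start, called at 72 h alone, had an interaction of 0.33 ± 0.17 (adjusted p = 0.683). Names of the 72 h libraries carry a tag that those at 24 h lack, so the interaction cannot tell time and that tag apart.

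In untreated cells, 4 of the 16 peaks rose and 1 fell from NSPs to 24 h, where 24.2% of all peaks rose and 23.0% fell. At 72 h, 7 rose and 4 fell, with 28.3% and 30.9% of all peaks. At 1 week, 8 rose and 4 fell, with 33.7% and 33.6%. From 72 h to 1 week 4 rose and 1 fell, with 22.5% and 16.2%. The median log2 change of the 16 was 0.06, 0.11, 0.50 and 0.11 in that order, beside -0.07, -0.06, 0.01 and 0.02 over all peaks. The 4 peaks that rose against NSPs at all 3 times were those of Ccl20, of Ccl11, 20.0 kb upstream of Ccl5 and 5.2 kb past Cx3cl1, and only the Ccl5 peak among them also rose with TNF. The share of all peaks that rose at all 3 times was not computed. The 1 week calls of the Ccl11 and Cx3cl1 peaks were lost in some settings, as given above. Without NSP replicate 1, 4 rather than 1 fell at 24 h and 6 rather than 4 at 72 h. NSPs were the deepest libraries. The names of the 72 h and 1 week libraries carry a tag that those of NSPs and 24 h lack. Time and that tag cannot be told apart at 72 h and 1 week against NSPs. The comparisons of 24 h with NSPs and of 1 week with 72 h do not cross the tag. All comparisons with NSPs also cross the change from floating spheres with EGF to serum on poly-L-ornithine, which cannot be told apart from time.

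The starts of Ccl2 and Ccl7 shared a dip and recovery that none of the peaks upstream of Ccl2 showed as calls. NSPs had 527, 605 and 720.3 normalised reads at Ccl2 and 442, 398 and 423 at Ccl7, and 1 week astrocytes 756, 751, 775 and 783 and 463, 468, 499.5 and 493. All untreated 72 h values given above lay below these at both genes. From NSPs to 72 h the starts fell by 0.46 (adjusted p = 0.00147) and 0.46 (adjusted p = 0.0017) on the log2 scale, and from 72 h to 1 week they rose by 0.78 ± 0.11 (adjusted p = 4.66e-06) and 0.65 ± 0.11 (adjusted p = 5.18e-05). Both falls were lost with scaling by total reads in peaks (adjusted p = 0.166 and 0.155) and with loess offsets (adjusted p = 0.194 and 0.0531). Scaling by total reads put the median of all peaks at -0.31 from 72 h to 1 week, against 0.02, and the rises there were at their lowest 0.37 and 0.31. Against NSPs the Ccl2 start was higher at 1 week (0.32 ± 0.11, adjusted p = 0.012). That call was lost without NSP replicate 1 (adjusted p = 0.085) and with loess offsets (adjusted p = 0.131). The peak 6.3 kb before Ccl2, with 29.2, 49.9 and 51.8 in NSPs and 22.0, 11.7, 11 and 22.5 at 1 week, fell from NSPs (-1.35 ± 0.34, adjusted p = 0.000807) and from 72 h (-1.31 ± 0.34, adjusted p = 0.00284).

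**Figure D4:**
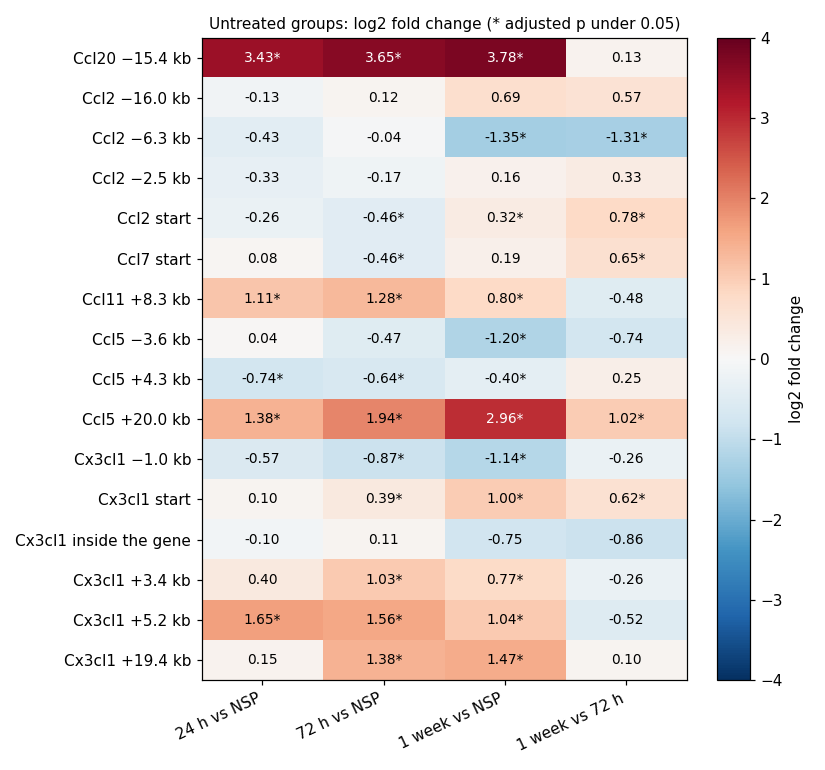
Log2 fold changes between untreated groups (columns) at the 16 peaks (rows), red for higher and blue for lower, with a star where the adjusted p was under 0.05. The peak before Ccl20 is red in all 3 comparisons with NSPs (3.43, 3.65 and 3.78), and the starts of Ccl2, Ccl7 and Cx3cl1 are red from 72 h to 1 week.

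Shared and gene-specific peaks both responded to TNF. Of the 4 shared peaks, all of them near Ccl2 and Ccl7, 1 rose at 24 h and 2 at 72 h, and of the 12 gene-specific peaks 3 rose at 24 h and 4 at 72 h, beside 7.06% and 6.24% of all peaks. Against NSPs the shared peaks had no call at 24 h, 2 lower at 72 h, and 1 higher and 1 lower at 1 week. The gene-specific peaks had 4 higher (33.3%) and 1 lower at 24 h, 7 higher (58.3%) and 2 lower at 72 h, and 7 higher (58.3%) and 3 lower at 1 week. Of all peaks, 24.2% and 23.0%, 28.3% and 30.9%, and 33.7% and 33.6% were higher and lower in the same order, and with so few peaks nothing is read from counts near these shares, such as those of the shared peaks at 1 week. Peaks of 1 locus are neighbours in the same libraries and are not independent of each other.

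Just past the 20 kb limit the upstream side of Ccl2 held further peaks. At 23.7 kb before Ccl2 (chr11:82011675-82012175) group means were 28.3 at 24 h and 77.7 with TNF, and 22.5 and 113 at 72 h. At 28.6 kb (chr11:82006705-82007205) they were 22.4 and 206 at 24 h, and 33.0 and 208 at 72 h. Past Cx3cl1, at 25.2 kb (chr8:94807381-94807881) and closer to Ccl17, a gene outside the set, they were 17.7 and 43.2, and 29.5 and 49.9. Upstream of Ccl5, at 26.1 kb and closer to Ccl9, they were 48.8 and 58.0, and 55.1 and 58.4, with 101 in NSPs. The next peak upstream, at 33.4 kb (chr11:83563665-83564165) and counted below with Ccl9, had 42.1 and 108, and 69.6 and 141. It rose with TNF at both times in limma (adjusted p = 0.000552 and 0.00823), and its mean was 28.0 in NSPs and 146 at 1 week. The Ccl5 peak at the limit itself had means of 15.8 and 120.0, and 20.9 and 235.

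The other genes of the pathway were taken as lists, leaving out the 16 peaks above, and their counts stand beside 7.06% higher and 3.53% lower of all peaks with TNF at 24 h and 6.24% and 5.55% at 72 h. Of 26 peaks around CC and CX3C receptors and decoy receptors, 1 fell with TNF at each time and the other 25 did not pass or were too low to test. It was the same peak near the decoy receptor Ackr1 (means of 229 and 149 with TNF at 24 h, and 198 and 90.2 at 72 h), and 4.0% of the 25 tested is close to the share of all peaks. Of 32 peaks around other CC ligands 5 rose at 24 h (16.7% of the 30 tested), and at 72 h 3 rose (10.0%) and 1 fell (3.33%), the 72 h counts being near the share of all peaks. They included a peak near Ccl1 (14.5 to 70.7 at 24 h), one near Ccl28 (18.1 to 107 at 72 h) and one near Ccl25 that fell (48.7 to 19.2 at 72 h). The 6 peaks around the CX3CL1 sheddase genes Adam10 and Adam17 did not pass at either time. Of 108 peaks around genes from the TNF receptors to NF-kB, 18 rose (16.7%) and 2 fell (1.85%) at 24 h and 23 rose (21.3%) and 85 did not pass at 72 h. Examples are peaks near the adaptor Traf2 (282 to 805 at 24 h), near Birc2 and Birc3, inhibitors of apoptosis (49.3 to 207), and near Nfkbia, the NF-kB inhibitor IkBa (513 to 912 at 72 h). The median log2 changes of the 4 lists were -0.03, 0.17, -0.08 and 0.17 at 24 h and -0.02, 0.13, 0.01 and 0.20 at 72 h.

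Over the 6 group means on the log2 scale, the peak most like that at the Ccl2 start among 187 other chemokine and pathway peaks was one near Traf2 (Pearson r = 0.98), followed by peaks near Ccl26 (0.93), Nfkbib (0.93), Chuk (0.91) and Adam10 (0.89). These are descriptions over 6 points that share libraries and depth, and they carry no test.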

How the data were processed

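ATAC-seq was measured in 19 libraries, grouped by sample titles. Per the study's methods, the authors quality-trimmed the reads (Trim Galore), used Bowtie2 for alignment, discarded mitochondrial alignments, called peaks with MACS (MACS2 in the submitters' processing notes) and dropped blacklisted regions. These notes name build mm10 and no versions. Duplicate removal and the transposase shift are not given in the sources used here. A shift of a few bases matters little at peaks that mostly span 500 bp. Per peak and library, the deposited table gives a signal. In every library 100% of values equalled a whole number times the library's lowest value (tolerance 0.01 reads), so reads in peaks divided by a size factor were recovered. Intervals and tests cover these libraries and, for depth, counting error only.

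Values were transformed as log2(value + 1), a scale that understates changes of low peaks, and tested with limma-trend 3.58.1 in R 4.3.3 over all 19 libraries, with a mean per group, no covariate and Benjamini-Hochberg adjustment. The filter (edgeR filterByExpr, minimum count 10) kept 88919 peaks and left out 1235. P-values are two-sided. The test was checked on simulated data for TNF at 24 h. Gene positions came from RefSeq GRCm38.p6, whose gene table has no strand, exons or untranslated regions. Of 7 comparisons, 1 was the interaction. Alternatives were other scalings, edgeR 4.0.16 and DESeq2 1.42.0 on recovered reads, filters, pseudocounts, windows, replicate blocks and omission of each library. The members, lists, motifs and rules were chosen with earlier results of these data known. Values in every library were given for the peak closest to each gene and the peaks with the smallest p per locus and comparison (up to 3 for TNF at each time and 2 against NSPs), and in practice for all 16. Marker lists were microglia and macrophages, endothelium, oligodendrocyte lineage, neurons, neural stem and progenitor, and astrocytes, with peaks within 1 kb of a gene end. The promoters of Ccl2, Ccl7, Ccl11 and Ccl5 and the sequences of the peaks were not analysed here.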

Additional observations from a re-analysis of the deposited data

Results flagged for a closer look

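In the 1 week group, the one with 4 libraries, 2 of the 16 peaks had a library far from the others. At the peak 8.3 kb past Ccl11, replicate 3, the shallowest library of the series at 9640256 reads in peaks, stood highest with 103 normalised reads beside 61.1, 65.2 and 67.8. At the peak 19.4 kb past Cx3cl1, replicate 2 stood lowest with 83.4 beside 101, 101 and 103. Chance flags about 1 in 20 such groups, and 16 groups were examined.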

How the results depend on the processing

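The 4 peaks called with TNF at both times, upstream of Ccl2 and Ccl5, kept direction and call in each of the 19 alternatives that retested them, at both times. Over all 43 called peak changes, no direction reversed in 834 repeats, and 56 repeats lost the call. In 8 repeats the fold moved by over 1.5 times. With a pseudocount of 5, the peak before Ccl20 rose against NSPs by 2.84, 3.05 and 3.17 on the log2 scale in place of 3.43, 3.65 and 3.78, and that 20.0 kb upstream of Ccl5 at 1 week by 2.32 in place of 2.96. The others were the 1 week changes 3.4 and 5.2 kb past Cx3cl1. Counts without the Ccl5 peak at the limit, added after the data were seen, stayed within 1.5 times. The counts of called peaks moved by more than 1.5 times as follows, and the cause was not tested except where fewer or more peaks were counted. Of peaks lower at 24 h against NSPs there were 2 rather than 1 with loess offsets, edgeR, DESeq2, a pseudocount of 5 and only the groups compared. Of peaks lower at 72 h against NSPs there were 2 rather than 4 with total reads and with loess offsets. Of peaks lower from 72 h to 1 week there were 5 with total reads (3 higher), 3 with TMM, 2 with edgeR and 2 with DESeq2, rather than 1. At an adjusted p under 0.01, 5 rather than 8 were higher at 1 week against NSPs. With a 10 kb window, which holds 12 peaks, those higher were 2 for TNF at 24 h, 2 at 24 h, 4 at 72 h and 5 at 1 week against NSPs. With a 50 kb window, which holds 30, 8 were higher with TNF at 24 h, 7 higher and 4 lower at 24 h, 11 higher and 8 lower at 72 h and 8 lower at 1 week against NSPs, and 7 higher and 2 lower from 72 h to 1 week. Over all peaks, total reads turned 20035 higher and 14383 lower from 72 h to 1 week into 7965 and 30033 (15781 and 18621 with TMM), and 25196 and 27509 at 72 h against NSPs into 32636 and 18509. It turned 21492 and 20490 at 24 h against NSPs into 26112 and 12367, and 5551 and 4932 with TNF at 72 h into 4221 and 6601.

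Leaving out 1 library gave 4 higher with TNF at 24 h in each case and 4 to 6 at 72 h, with 0 lower. Against NSPs it gave 4 higher and 1 to 4 lower at 24 h, 6 to 7 and 4 to 6 at 72 h, and 6 to 7 and 3 to 5 at 1 week. From 72 h to 1 week it gave 3 to 4 higher and 1 to 2 lower, the 2 without 72 h replicate 1, 1 week replicate 1 or 1 week replicate 3. For the interaction it gave 0. Deviations from group means of samples with the same replicate number correlated at -0.03 to 0.11. Correlations between unlike numbers were not computed, so these values cannot settle whether the numbers mark pairs. The numbers were not taken as pairs. With a replicate block by title number, 2 rather than 1 peaks were lower at 24 h against NSPs and the call at the Ccl2 start with TNF at 72 h was lost (adjusted p = 0.0551). With the number in the library names it was also lost (adjusted p = 0.141), as was that 3.4 kb past Cx3cl1 (adjusted p = 0.0823). The 1 week call against NSPs 3.4 kb past Cx3cl1 was lost under both blocks (adjusted p = 0.0645 by title and 0.0768 by library name). The call from 72 h to 1 week 20.0 kb upstream of Ccl5 was lost under the title block (adjusted p = 0.064), under which the 1 week change 5.2 kb past Cx3cl1 was 1.64. At 9640256 to 39349111 reads in peaks, the lowest member value was 5 reads, so small changes of the low peaks were not detectable at this depth.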

Other observations

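The other marker lists gave these summed levels at gene ends, as ranges over libraries. Endothelial markers (2 peaks, near Flt1 and Kdr) summed to 377 to 423 in NSPs, 297 to 330 at 24 h, 264 to 323 with TNF, 225 to 250 at 72 h, 225 to 284 with TNF and 209 to 271 at 1 week. Oligodendrocyte lineage markers (5 peaks) summed to 3144 to 3582 in NSPs, 2114 to 2216 at 24 h, 1818 to 1964 with TNF, 1514 to 1566 at 72 h, 1647 to 1849 with TNF and 1551 to 1710 at 1 week. Neuronal markers (6 peaks) summed to 1097 to 1689 in NSPs and 883 to 1243 in all other groups. None of these lists includes a chemokine peak. Around Cx3cl1, a peak 39.0 kb from the gene had group means of 26.1 in NSPs, 183 at 24 h, 703 at 72 h and 1044 at 1 week, and 93.7 and 344 with TNF at 24 h and 72 h. It lies outside the window, closer to Ccl17 than to Cx3cl1, and was chosen after its values were seen. Its lower means with TNF were not called, since no peak within 50 kb of the genes was called lower with TNF at either time.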
